A study of Mus musculus with 6 samples.

Results

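The transcripts of 5 peptide precursor genes were followed in the hypothalamic paraventricular nucleus (PVN) of mice after an electroconvulsive seizure (ECS), namely Trh (thyrotropin-releasing hormone), Sst (somatostatin), Pdyn (prodynorphin), Penk (proenkephalin) and Gal (galanin). Every probe set that carries 1 of these symbols and no other was taken. The array holds 5 such probe sets, 1 per gene, of 22690 in all, and each of the 5 passed the filter on dim probe sets.

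All mice were C57Bl/6, and no genotype other than the strain is named; age and sex are not given in the labels. The ECS 6 h and ECS 2 h mice received 1 bilateral shock through ear clips under isoflurane (25 mA, 1 s, 100 pulses per s, 0.5 ms pulse width), and tissue was taken 6 h or 2 h later. Sham mice were handled like the ECS mice without current, and their tissue was taken at 2 h, so the 6 h comparison with sham also spans 4 h of clock time. Each group has 2 arrays, and each array carries RNA pooled from 2 or 3 mice, laser-microdissected from 7 µm sections and amplified from 2 ng of total RNA. The experiment was run 2 times with different animals, and replicates 1 and 2 were read as these runs.

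PVN neurons reach both lobes of the pituitary. Parvocellular neurons release factors such as thyrotropin-releasing hormone into the portal blood, where it drives the thyroid axis, and magnocellular neurons send oxytocin and vasopressin axons to the posterior lobe. Somatostatin holds back growth hormone and thyrotropin, and much of it is made in periventricular neurons that border the PVN. Dynorphin is stored with vasopressin in magnocellular neurons and acts on the kappa opioid receptor. Enkephalins act mainly on delta and mu receptors, and galanin is a co-transmitter of several hypothalamic cell groups. Each is cut from a larger precursor by prohormone convertases, and the transcripts measured here encode those precursors.

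The tissue carried the hormones of the nucleus. Oxt (oxytocin) had a normalized signal of 2853 and 2074 at ECS 6 h, 2221 and 1859 at ECS 2 h, and 1841 and 1786 in sham. Every ECS array of Oxt lay above both sham arrays, an order met upward by 6.02% of all tested probe sets. Its log2 change was 0.42 ± 0.19 at 6 h and 0.16 ± 0.19 at 2 h. With 1 array left out the 6 h change ran from 0.19 to 0.65. Avp (vasopressin) was at 1122 and 1068 at ECS 6 h, 1115 and 976 at ECS 2 h, and 1024 and 732 in sham. It lay above sham without overlap at 6 h (0.33 ± 0.23) and overlapped it at 2 h (0.26 ± 0.23). Neither hormone gene was called. Sim1, the transcription factor that specifies PVN neurons, ranged from 217 to 431 and overlapped sham at both times. Otp, another such factor, stayed between 2.27 and 16.6 and did not pass the filter. Replicate 1 of ECS 6 h stood apart from the other arrays. Its mean rank correlation with them was 0.887, against 0.906 to 0.919 for the rest. Its Gapdh 3′ to 5′ signal ratio was 14.1 against 6.43 to 10.5. In amplified RNA this ratio does not separate RNA integrity from the amplification. The fitted 6 h changes of the 5 precursors are also given without it.

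Promoter sequence is one feature the 5 genes can be compared on without the array values. RefSeq (GRCm38.p6) start sites were matched for 4 of the 5 genes, Trh, Sst, Pdyn and Gal, and the 250 bases upstream of each start were searched on both strands. The motifs were TGACGTCA, the cyclic AMP response element bound by CREB, its core TGACG, which lies within it, and TGANTCA, the element bound by AP-1. Sst holds the complete element from 48 to 41 bases upstream of its start. Trh holds the core on the opposite strand, from 96 to 92 bases upstream, where it reads CGTCA. The windows of Pdyn and Gal hold none of these letters, and TGANTCA is in none of the windows of the 4 genes. Of 32851 windows of the same length, 1.55% hold TGACGTCA, 17.8% TGACG and 6.75% TGANTCA. The 150 bases before the start are shown for the pair of genes with a match, 5′ to 3′ on the gene's strand, with the matched letters in capitals. Both genes lie on the minus strand, Sst at chr16:23890845-23890994 and Trh at chr6:92244651-92244800.

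Sst: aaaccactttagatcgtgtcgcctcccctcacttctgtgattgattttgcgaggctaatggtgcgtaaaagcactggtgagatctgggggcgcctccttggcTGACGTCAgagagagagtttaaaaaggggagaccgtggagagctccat

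Trh: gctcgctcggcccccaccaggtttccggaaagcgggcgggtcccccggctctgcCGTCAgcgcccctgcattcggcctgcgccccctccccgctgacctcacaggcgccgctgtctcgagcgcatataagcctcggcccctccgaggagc

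A match is a description of the letters only and shows neither binding nor a cause.

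The comparison of ECS with sham asks whether the seizure altered the supply of these precursors at 6 h or 2 h. Fitted changes of all 5 genes were above 0 at both times, but none passed in limma with Benjamini-Hochberg adjustment over the 12662 tested probe sets. The background was equally empty, with 0% of tested probe sets called at 6 h and 0% at 2 h. An unadjusted p under 0.05 was met at 6 h by 0 of the 5 genes and by 3.75% of all tested probe sets, and at 2 h by 1 of the 5 (Trh) and by 4%. The median log2 change of the 5 genes was 0.57 at 6 h and 0.25 at 2 h, beside medians over all tested probe sets of -0.0033 and 0.0077. The 6 h and 2 h comparisons share their sham arrays, so their common direction is not independent. With 2 arrays against 2 an exact permutation test cannot give a p below 0.333, and with the 4 ECS arrays against the 2 sham arrays not below 0.0667. In tissue of this kind fewer cells of a type and less RNA per cell cannot be told apart.

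**Figure D1:**
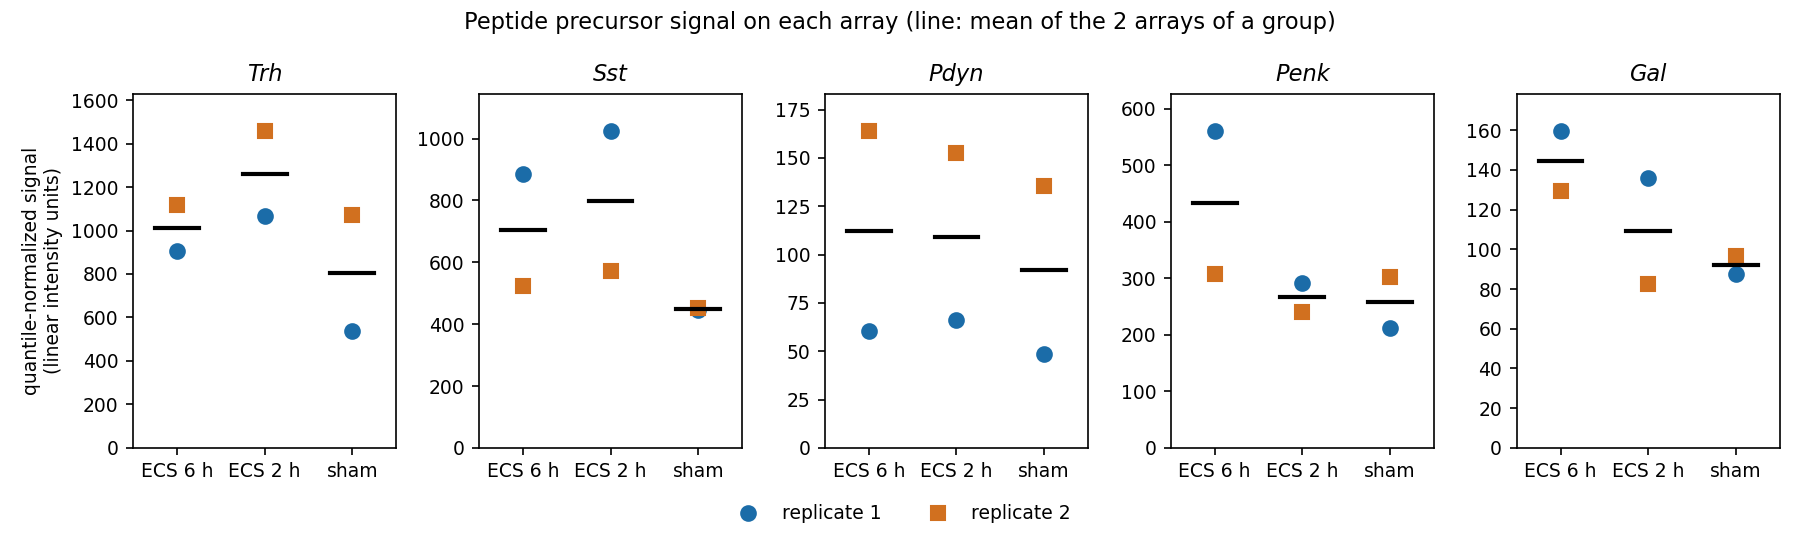
Quantile-normalized signal (linear axis from 0, intensity units) of the 5 precursor genes on each of the 6 arrays, with ECS 6 h, ECS 2 h and sham from left to right. Circles are replicate 1, squares replicate 2 and lines the mean of the 2 arrays of a group. All 4 ECS arrays of Sst lie above both sham arrays (524 to 1023 against 446 and 451). Pdyn and Trh have replicate 2 above replicate 1 in every group.

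Trh, the releasing hormone of the thyroid axis, had a normalized signal of 904 and 1117 at ECS 6 h, 1068 and 1456 at ECS 2 h, and 536 and 1073 in sham (replicates 1 and 2). Replicate 1 of sham was the low array, and replicate 2 of sham lay within the range of the ECS arrays, so the groups overlapped. The log2 change was 0.40 ± 0.32 at 6 h and 0.70 ± 0.32 at 2 h (SE, n = 2 arrays per group), that is 1.32-fold and 1.63-fold. The 2 h change had an unadjusted limma p of 0.0493 and an adjusted p of 1.00. It depended on sham replicate 1. Without that array the log2 change was 0.21 at 2 h and -0.096 at 6 h, and without sham replicate 2 it was 1.21 and 0.89. Without replicate 1 of ECS 6 h the 6 h change was 0.54.

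Sst, which encodes the inhibitor of growth hormone and thyrotropin release, was at 884 and 524 at ECS 6 h, 1023 and 571 at ECS 2 h, and 446 and 451 in sham. The sham arrays were nearly level, and each ECS array lay above both. In each ECS group replicate 1 carried the higher value. The log2 change was 0.59 ± 0.34 at 6 h and 0.75 ± 0.34 at 2 h (1.68-fold at 2 h), with unadjusted limma p of 0.115 and 0.0511 and adjusted p of 1.00 for both. Without replicate 1 of ECS 6 h the 6 h change was 0.22, and without replicate 1 of ECS 2 h the 2 h change was 0.33. All ECS arrays against sham gave 0.67 ± 0.30 (unadjusted limma p = 0.0458, adjusted p = 1.00, exact permutation p = 0.133, two-sided), and 0.48 without replicate 1 of ECS 6 h. An unadjusted p under 0.05 was met there by 4.2% of tested probe sets, and 0% were called. Sst alone of the 5 genes had every ECS array above every sham array, an order met upward by 6.02% of all tested probe sets.

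Sst is also made by interneurons of cortex and hippocampus, and the summed markers of those regions lay lower in ECS. The summed signal of 6 forebrain interneuron markers was 303 to 431 at ECS 6 h, 412 to 431 at ECS 2 h and 763 to 940 in sham. Of these, 5 were tested and 0 called. The peptide genes Cck, Npy and Vip of this list reached the array median on no ECS 2 h array, and Npy was tested through its sham arrays alone, so their values depend on the offset. Npy was at 17.7 and 27.9 at ECS 6 h, 0.817 and 23.4 at ECS 2 h, and 129 and 55.3 in sham. Its log2 change at 2 h was -1.98, or -3.68 with an offset of 1 and -1.01 with 64. At 6 h the log2 change was -1.74 for Cck and -1.04 for Vip, or -0.90 and -0.31 without replicate 1 of ECS 6 h. Markers of cortical and hippocampal excitatory neurons, 4 of 8 listed genes, had summed signals of 141 to 548 at ECS 6 h, 49.2 to 123 at ECS 2 h and 675 to 789 in sham. Among them Camk2a, a kinase subunit of forebrain excitatory neurons, was at 130.1 and 427 at ECS 6 h, 36.9 and 93.9 at ECS 2 h, and 454 and 536 in sham. Its log2 change at 2 h was -2.74 ± 0.53, with a limma adjusted p of 0.513, and of 0.0434 with the replicate block, so the block made this marker a call. All 8 general neuron markers were below sham at both times, none called, with median log2 changes of -0.28 at 6 h and -0.42 at 2 h. Eno2 was nearly level, at -0.011 ± 0.17 and -0.043 ± 0.17. The sums of the 8 were 11029 to 12855 at ECS 6 h, 10465 to 10629 at ECS 2 h and 13617 to 14259 in sham. Snap25 was the largest, at 5187 and 5483 at ECS 6 h, 5032 and 4228 at ECS 2 h, and 6835 and 5938 in sham. The oligodendrocyte sums, over 4 of 5 listed genes, were 1114 to 1187, 1432 to 1455 and 1768 to 2069 in the same order, also below sham without overlap. The endothelial sums, over 5 genes of which 3 were tested, lay above sham, at 212 to 301, 193 to 361 and 160 to 162. Of these, Cldn5 overlapped sham at both times. It was at 65.4 and 164 at ECS 6 h, 237 and 72.8 at ECS 2 h, and 107 and 68.2 in sham. In the same order the thalamus sums, over 5 genes of which 2 were tested, were 166 to 246, 156 to 159 and 171 to 192. Those of other hypothalamic nuclei, over 5 of 8 listed genes of which 1 was tested, were 115 to 169, 146 to 176 and 114 to 124. Astrocyte sums overlapped sham at both times (2528 to 2589, 2700 to 2719 and 2376 to 2824). So did microglia sums (987 to 1260, 842 to 1009 and 799 to 1187). PVN neuron sums, over 6 of 7 listed genes, were 3653 to 4430 at ECS 6 h, 3359 to 3895 at ECS 2 h and 2985 to 3409 in sham. They lay above sham without overlap at 6 h and overlapped it at 2 h. Ependymal and tanycyte sums, over 3 of 5 listed genes of which 1 was tested, did the same (518 to 652, 449 to 478 and 416 to 457). The part of these tissue and cell markers in the peptide values was not tested.

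Pdyn, the dynorphin precursor, was at 60.2 and 164 at ECS 6 h, 66.0 and 152 at ECS 2 h, and 48.6 and 136 in sham. Replicate 2 was above replicate 1 by about the same step in all groups, and the groups overlapped almost fully. The log2 change was 0.24 ± 0.56 at 6 h and 0.25 ± 0.56 at 2 h (adjusted p = 1.00 for both). The change within replicate 1 was 0.24 at 6 h and 0.34 at 2 h, and within replicate 2 it was 0.24 and 0.15. The 6 h change was 0.85 without replicate 1 of ECS 6 h. Leaving out 1 array leaves the replicate numbers unbalanced, and the fitted change then ran from -0.38 to 0.86 at 6 h and from -0.37 to 0.86 at 2 h. The 95% interval of the fit, -0.998 to 1.48 at 6 h and -0.99 to 1.49 at 2 h, is wide on both sides of 0.

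Penk, the enkephalin precursor, was at 560 and 307 at ECS 6 h, 291 and 241 at ECS 2 h, and 213 and 303 in sham. Both ECS 6 h arrays lay above both sham arrays, replicate 2 by a small margin, and the ECS 2 h arrays lay within the sham range. On the log2 scale the change was 0.68 ± 0.36 at 6 h (1.60-fold, limma adjusted p = 1.00) and 0.058 ± 0.36 at 2 h. The 6 h value came mostly from replicate 1 of ECS 6 h, the array that stood apart. Without it the log2 change was 0.25, and the change within replicate 1 was 1.33, against 0.019 within replicate 2. Penk is abundant in striatum. Of 7 listed symbols of striatal markers 3 were on the array, and 1 of these passed the filter. The summed signal of the 3 was 39.1 to 90.9 at ECS 6 h, 50.4 to 55.0 at ECS 2 h and 60.0 to 92.5 in sham.

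Gal, the galanin precursor, was at 159 and 129.6 at ECS 6 h, 136 and 82.5 at ECS 2 h, and 87.5 and 96.4 in sham. Both ECS 6 h arrays exceeded both sham arrays, while at ECS 2 h one array lay above and one below the sham pair. In limma this gave a log2 change of 0.57 ± 0.37 at 6 h (1.48-fold, adjusted p = 1.00) and 0.18 ± 0.37 at 2 h. Without replicate 1 of ECS 6 h the 6 h change was 0.42, with 0.76 within replicate 1 and 0.37 within replicate 2. The 2 h change was -0.13 without replicate 1 of ECS 2 h.

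In 3 of the 5 genes (Sst, Penk and Gal) the ECS 6 h arrays lay above the sham arrays without overlap, against 14.8% of all tested probe sets. At 2 h this held for 1 of 5 (Sst), against 16.3%. Within the same replicate number, ECS 6 h was above sham in both replicates for 5 of 5 genes, where 25.6% of tested probe sets were. ECS 2 h was above sham in both for 3 of 5 (Trh, Sst and Pdyn), where 27.6% were. With the ECS groups averaged it held for 4 of 5 (all but Penk), where 26.8% did, and ECS 6 h was above ECS 2 h in both for 2 of 5 (Penk and Gal), where 24.5% were. The 5 genes share the same 6 arrays, so these counts are a description. The changes within replicate 1 were larger than those within replicate 2 for Trh, Sst, Penk and Gal at both times. Replicate 1 arrays had lower medians (25.2 to 28.2 against 32.6 to 40.8) and lower mean rank correlations (0.887 to 0.906 against 0.913 to 0.919). Their Gapdh ratio was higher at ECS 6 h (14.1 against 7.92) and in sham (10.5 against 6.43), but not at ECS 2 h (7.19 against 7.47). The part of array quality in these changes was not tested.

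**Figure D2:**
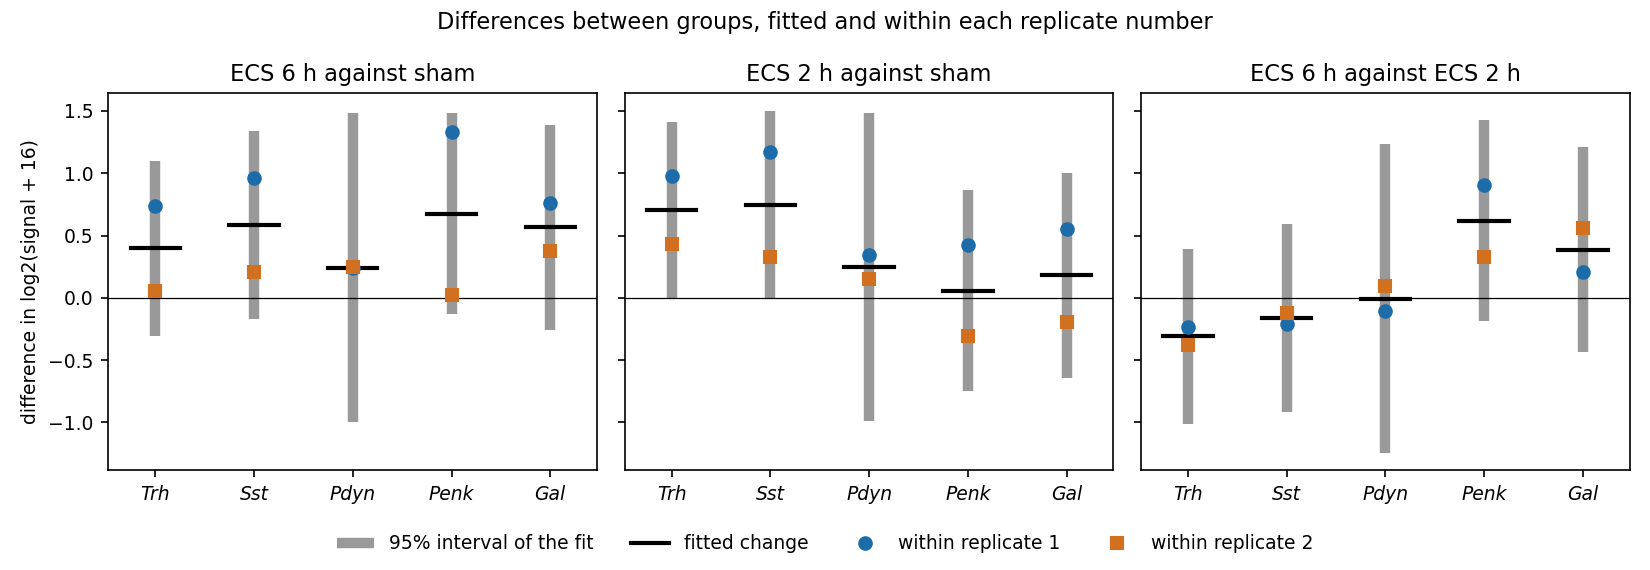
Differences in log2(signal + 16) for the 5 precursor genes in 3 comparisons, with the limma estimate (line), its 95% interval (grey bar) and the difference within replicate 1 (circle) and replicate 2 (square). At 6 h against sham every point lies above 0, from 0.019 to 1.33.

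The comparison of ECS 6 h with ECS 2 h asks whether the levels differed between the times after the seizure. It too spans 4 h of clock time. Without sham tissue at 6 h, clock time and time after the seizure cannot be told apart. Penk and Gal lay above their 2 h level at 6 h, by 0.62 ± 0.36 and 0.38 ± 0.37 on the log2 scale, and Trh and Sst lay below it, at -0.31 ± 0.32 and -0.16 ± 0.34. The difference of Pdyn was -0.0058 ± 0.56. None of the 5 passed in limma (adjusted p = 1.00 for each), with a background of 0% called and 3.46% at an unadjusted p under 0.05, which 0 of the 5 met. Both Penk arrays at 6 h (560 and 307) lay above both at 2 h (291 and 241), an order met upward by 14.4% of tested probe sets, and the other 4 genes overlapped. Without replicate 1 of ECS 6 h the differences were 0.20 for Penk, 0.25 for Gal, -0.15 for Trh, -0.53 for Sst and 0.61 for Pdyn. The 95% intervals of the differences reached from -0.19 to 1.42 for Penk, -0.44 to 1.21 for Gal, -1.01 to 0.40 for Trh and -0.92 to 0.59 for Sst. That of Pdyn was the widest, from -1.24 to 1.23, so a change in either direction is not excluded.

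Replicate number separated the arrays of Pdyn more clearly than treatment did. In the fit with group and replicate number together, Pdyn was 1.17 ± 0.28 higher in replicate 2 than in replicate 1 on the log2 scale (2.25-fold, limma adjusted p = 0.0913). The difference was 1.24 at ECS 6 h, 1.04 at ECS 2 h and 1.23 in sham. The signal was 136 to 164 in replicate 2 and 48.6 to 66.0 in replicate 1, without overlap. Replicate number took up 95.7% of the sum of squares of Pdyn over the 6 arrays, and group 3.70%. The replicate term was tested after these values had been seen. It called 0 of the 5 genes and 0.9% of tested probe sets, and 14.3% had an unadjusted p under 0.05. Of all tested probe sets 9.71% had all 3 replicate 2 arrays above all 3 replicate 1 arrays.

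Trh went the same way, with 0.57 ± 0.16 (limma adjusted p = 0.140) and differences of 0.30, 0.44 and 0.98 at ECS 6 h, ECS 2 h and in sham. Its signal was 1073 to 1456 in replicate 2 and 536 to 1068 in replicate 1. These did not overlap either, by a narrow margin, an order met by 9.71% of all tested probe sets. Replicate number took up 44.0% of the sum of squares of Trh, and group 44.5%. Sst went the other way at -0.51 ± 0.20 (adjusted p = 0.282). Its arrays differed by -0.74 at ECS 6 h and -0.82 at ECS 2 h but by 0.017 in sham. Penk (-0.21 ± 0.27) and Gal (-0.26 ± 0.29) had replicate terms within their errors. The standard error of the change against sham was 0.34 with replicate number in the fit and 0.56 without it for Pdyn, and 0.20 and 0.32 for Trh. Trh then stood at an unadjusted limma p of 0.00465 at 2 h (adjusted p = 0.480) and Sst at 0.0121 (adjusted p = 0.606), so neither was called. That fit called 0% of tested probe sets at 6 h, 0.0316% at 2 h, 0.0079% for all ECS arrays and 0% at 6 h against 2 h.

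**Figure D3:**
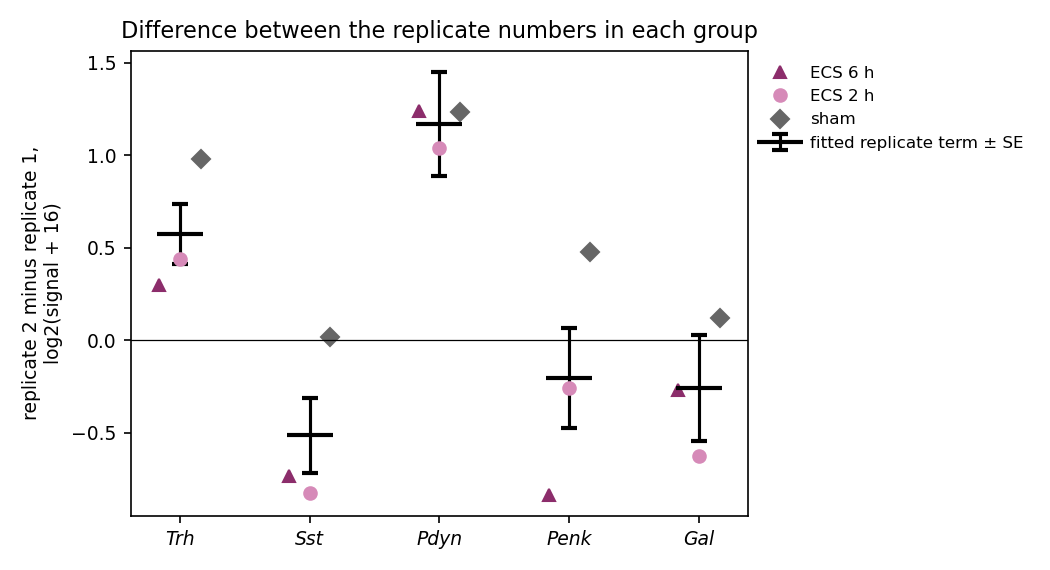
Replicate 2 minus replicate 1 in log2(signal + 16) for the 5 precursor genes, separately for ECS 6 h (triangles), ECS 2 h (circles) and sham (diamonds), with the fitted replicate term and its SE (black). The 3 Pdyn points lie together between 1.04 and 1.24, whereas those of Penk spread on both sides of 0.

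Receptors of the peptides were mostly dim. Of the somatostatin receptors Sstr1 to Sstr5, Sstr2 passed the filter, at 57.9 and 122 at ECS 6 h, 93.3 and 54.0 at ECS 2 h, and 131 and 43.3 in sham. The opioid receptor genes Oprk1 (kappa), Oprm1 (mu) and Oprd1 (delta) and the galanin receptor Galr2 did not pass. Nor did Trhr2, another receptor gene of thyrotropin-releasing hormone, at 1.57 to 14.3. The brighter probe set of Galr1, a galanin receptor, reached the array median on 3 of 6 arrays, at 8.42 and 24.0, 49.1 and 24.5, and 37.0 and 33.4 (ECS 6 h, ECS 2 h, sham). None of the receptors was called.

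Trhr, the pituitary and brain receptor of thyrotropin-releasing hormone, had its highest values at ECS 2 h. Its brighter probe set was at 10.8 and 20.8 at ECS 6 h, 44.0 and 36.3 at ECS 2 h, and 5.25 and 5.60 in sham, and the groups did not overlap. It entered the test only through its ECS 2 h arrays and its sham signal was below the offset of 16, so the log2 change (0.55 ± 0.49 at 6 h, 1.39 ± 0.49 at 2 h, adjusted p = 1.00 for both) depends on that offset. With an offset of 1 it was 1.32 and 2.67, and with 64 it was 0.20 and 0.58. The 6 h change was 0.79 without replicate 1 of ECS 6 h. The second probe set of Trhr stayed between 0.35 and 16.8, did not pass the filter and overlapped at 2 h. For the brighter probe set every ECS array lay above both sham arrays, an order met upward by 6.02% of all tested probe sets.

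Dio2, the deiodinase that makes active thyroid hormone in brain, was lower. It was at 11.7 and 73.6 at ECS 6 h, 52.6 and 29.3 at ECS 2 h, and 112 and 120 in sham, and both ECS groups lay below sham without overlap. Its log2 change was -1.40 ± 0.54 at 6 h and -1.24 ± 0.54 at 2 h (adjusted p = 1.00 for both), and -0.55 at 6 h without replicate 1 of ECS 6 h. Its other 2 probe sets did not pass the filter and overlapped sham at both times. The share of all tested probe sets in the same downward order was not counted. Of the 10 listed genes of TRH reception and thyroid hormone handling 5 were tested, with 1 above and 4 below sham at each time and 0 called. The 1 above was Trhr, tested through its ECS 2 h arrays alone. Medians of the list were -0.13 at 6 h and -0.25 at 2 h.

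Prohormone processing genes, whose products cut and finish these precursors, had 10 tested members of 11 listed, with 7 above and 3 below sham at each time, 0 called, and medians of 0.15 at 6 h and 0.10 at 2 h. Pcsk1, the convertase that makes the first cuts in many precursors, was at 483 and 339 at ECS 6 h, 418 and 367 at ECS 2 h, and 219 and 271 in sham. As for Sst and for 6.02% of all tested probe sets, every ECS array of Pcsk1 exceeded both sham arrays. Its log2 change was 0.70 ± 0.32 at 6 h and 0.65 ± 0.32 at 2 h (adjusted p = 1.00 for both), or 0.44 at 6 h without replicate 1 of ECS 6 h. The peptide-degrading peptidases, which end the action of released peptides, had 7 tested members of 10 listed, with 5 above sham at 6 h and 4 at 2 h, 0 called, and medians of 0.022 and 0.033.

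Regulators of the CREB and AP-1 families, which act on promoters of peptide genes, had 9 tested members of 16 listed. At 6 h 8 were above sham, with a median log2 change of 0.48, and at 2 h 6 were, with a median of 0.47. At either time 0 were called. Fos and Fosb are among them and passed the filter through ECS arrays alone, so these counts and medians are a description. Fos, a subunit of AP-1, was at 24.1 and 41 at ECS 6 h, 136 and 96.2 at ECS 2 h, and 17.0 and 16.5 in sham. Its log2 change was 0.55 ± 0.42 at 6 h and 2.00 ± 0.42 at 2 h (adjusted p = 1.00 and 0.580), and it passed the filter through ECS arrays alone. The 6 h change of Fos was 0.80 without replicate 1 of ECS 6 h. Fosb, another AP-1 subunit, was at 0.783 and 13.9, 79.7 and 64.2, and 5.40 and 5.95 (ECS 6 h, ECS 2 h, sham). Both ECS 2 h arrays stood above all others, and it passed the filter through them alone (log2 change 0.047 ± 0.51 at 6 h and 2.02 ± 0.51 at 2 h, limma adjusted p = 1.00 and 0.692). Jun, the partner of both, was at 482 and 366, 524 and 652, and 354 and 180 (ECS 6 h, ECS 2 h, sham). Its change was 0.70 ± 0.36 at 6 h and 1.16 ± 0.36 at 2 h, or 0.24 and 0.71 without sham replicate 2, and 0.50 at 6 h without replicate 1 of ECS 6 h. The second Jun probe set gave 0.65 and 0.87. Creb1, by the brightest of its 4 probe sets, was at 52.2 and 173, 84.5 and 79.5, and 36.2 and 50.6 in the same order. Its change was 0.95 ± 0.49 at 6 h and 0.73 ± 0.49 at 2 h, not called. The other neuropeptide genes, 9 tested of 16 listed, were divided, with 5 above sham at 6 h and 4 at 2 h.

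**Figure D4:**
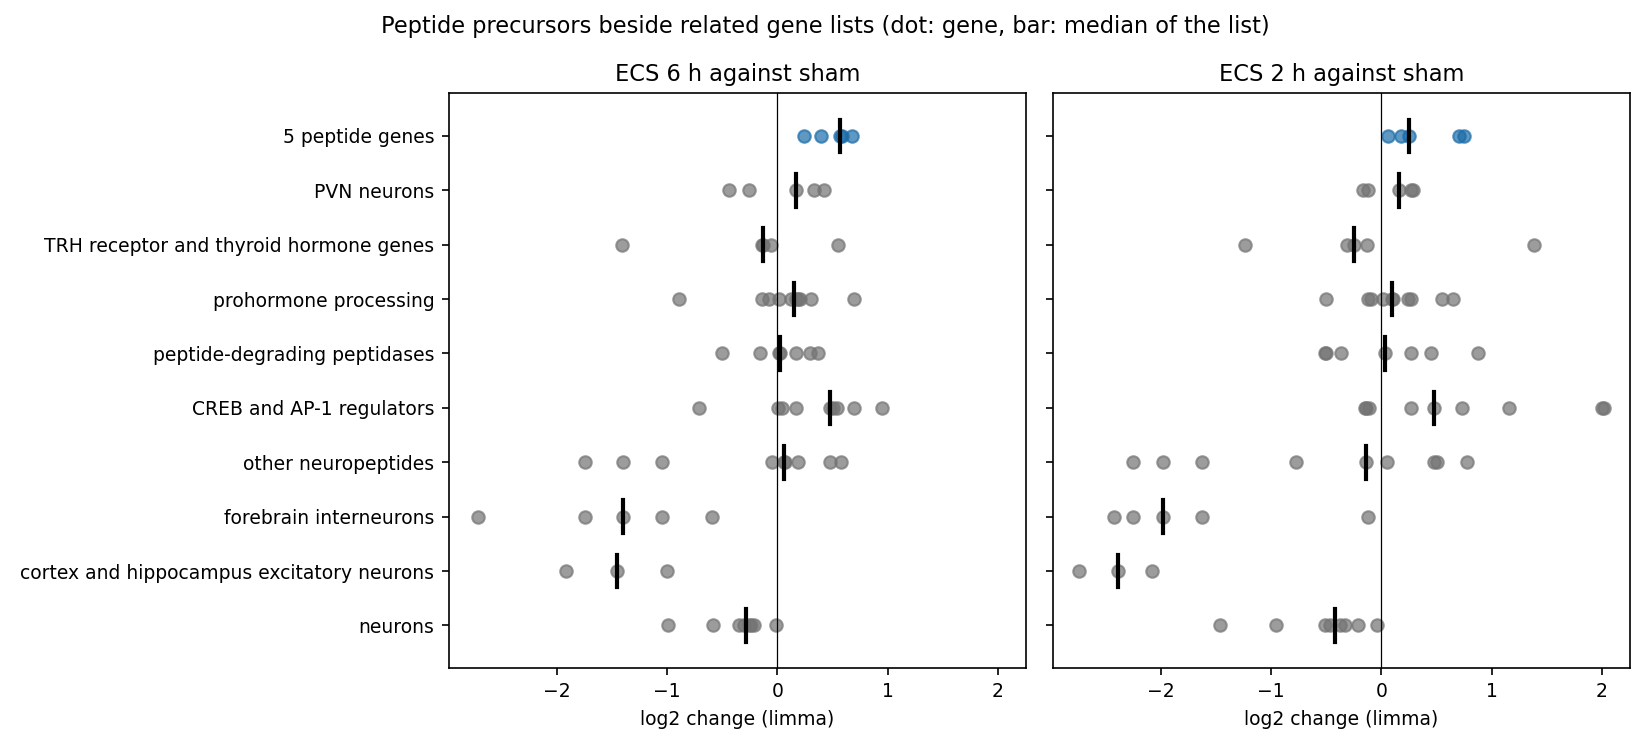
Log2 changes from limma at ECS 6 h (left) and ECS 2 h (right) against sham for the 5 precursor genes (top row) and for tested genes of related lists and marker lists; bars are medians. The precursors lie between 0.24 and 0.68 at 6 h and between 0.058 and 0.75 at 2 h. Positions of dim genes, such as most interneuron markers, depend on the offset.

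Genes whose log2 signal ran most like that of each precursor over the 6 arrays were listed by Pearson correlation, as a description over 12662 probe sets on few arrays. For Trh they were Epm2aip1 and Tubb6 (r = 0.996 each) and Dedd (0.989), and for Sst Saa1 (0.996), Pinx1 (0.987) and Rarres2 (0.983). For Pdyn they were Stard3nl and Sub1 (0.995 each) and Spg20 (0.993). For Penk they were Uggt1 (0.996), Ube2r2 (0.986) and Kctd9 (0.985), and for Gal Atox1 (0.993), Nsun4 (0.978) and Arpc5l (0.977). A correlation over 0.9 was reached by 263 probe sets for Pdyn and by 116 to 138 for the other 4 genes.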

How the data were processed

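The deposited values are linear intensity values of a 1-colour Affymetrix mouse array from the authors. MAS5 is the tool named per the submitters' processing notes, with version and target not given in the sources used here. Array medians ran from 25.2 to 40.8, so arrays were quantile-normalized, an offset of 16 was added and log2 was taken. This shrinks changes of dim probe sets, since the floor is 4. After removal of 64 control probe sets, the 12662 of 22626 that reached the median of the array on at least 2 of 6 arrays were tested in limma 3.58.1 (R 4.3.3) with a mean per group, an intensity trend and Benjamini-Hochberg adjustment, two-sided, at 0.05. Gene symbols came from the array annotation; 20380 probe sets carried 1, 691 several and 1555 none, and Entrez identifiers linked 20351 to RefSeq genes. The procedure was tested on simulated data.

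The 5 genes, the gene lists and the tests were chosen with earlier results of these data known. Named genes are the 5 precursors, the receptors, and the 3 genes of highest correlation with each precursor. Some of the members of smallest p in the pathway lists are named as well, 4 at most per list. For the peptidases only counts and medians are given. Otp and the markers Camk2a, Eno2, Snap25 and Cldn5 fall outside this rule and were chosen after their values were seen. List genes with several probe sets are given by the one of highest mean signal. Deviations of equal replicate numbers correlated by 0.228, 0.185 and 0.151 between pairs of groups over the tested probe sets, and the series' design states 2 runs on different animals, so a fit with a replicate block was run. Nothing in the labels ties a replicate to single animals, and p-values measure the spread between pools. The number of arrays limits the precision. Alternatives covered the offset, scaling, filter, variance trend, array weights, replicate block, fewer arrays and leaving out each array.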

Additional observations from a re-analysis of the deposited data

How the results depend on the processing

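None of the 5 precursor genes was called in any comparison under the up to 17 alternative settings, and of 335 alternative values of their changes 315 kept their direction and 20 reversed. With the values as deposited Penk was at -0.047 at 2 h against sham, Sst at 0.049 and Pdyn at 0.105 at 6 h against 2 h, and Pdyn was there at 0.011 with median subtraction and 0.0039 with an offset of 64. Leaving out 1 array gave ranges against sham at 2 h of -0.18 to 0.29 for Penk, -0.13 to 0.50 for Gal and -0.37 to 0.86 for Pdyn. At 6 h they were -0.096 to 0.89 for Trh and -0.38 to 0.86 for Pdyn. At 6 h against 2 h they were -0.58 to 0.25 for Sst and -0.63 to 0.61 for Pdyn, and for all ECS arrays -0.38 to 0.86 for Pdyn. The cause was not tested.

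The number of all tested probe sets called at 2 h against sham was 0, and 1 with the values as deposited, 1 with median subtraction, 2 with array weights, 4 with the replicate block and 12 when the fit held no arrays of the other group. For all ECS arrays against sham the block gave 1 in place of 0. Leaving out 1 array gave 0 to 10 calls at 2 h, 0 to 6 at 6 h, 0 to 3 at 6 h against 2 h and 0 to 14 for all ECS arrays. The block changed no call of the 5 genes. A mean over probe sets could not be fitted as an alternative because each of the 5 genes has 1 probe set. The array medians of 25.2 to 40.8 lie near the offset of 16, which limits what dim genes such as the receptors can show.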
